A study of Mus musculus with 6 samples.

Results

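Cohesin is a ring of proteins that links sister chromatids and forms loops of chromatin. Its core is built from the ATPases SMC1A and SMC3, the kleisin RAD21 that closes the ring, and a STAG subunit, either STAG1 or STAG2, which helps the ring bind DNA and CTCF. Loss of STAG2 leaves rings with STAG1, and STAG2 is among the genes recurrently mutated in bladder cancer. Described here is the open chromatin around the 5 genes of this core, Stag1, Stag2, Smc1a, Smc3 and Rad21. All distinct peak intervals that overlapped a gene's mm10 span widened by 20 kb on each side were taken. They numbered 255 of 1085290 distinct intervals in the 6 peak lists, with 34 to 49 in a list.

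The lists came from ATAC-seq, in which a transposase inserts adapters into accessible DNA. The cells were GFP+, DAPI- urothelial cells sorted from peeled mouse bladder lining. There were 3 Stag2-WT and 3 Stag2-KO libraries, all from mice on a TMX diet, taken 1 week after induction and labelled as batch 1. The labels give 50000 cells per condition. The titles number the libraries of each genotype as biological replicates 1 to 3. The labels do not state the recombinase that deletes Stag2, the exons removed, the age of the mice or how many mice made a library. The p-values here therefore cover only the library-to-library spread, and how much of it is between animals is not known.

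Each list was ranked by the authors' fold over local background, so that rank 1 is the interval with the highest fold. Comparison used ranks within the 100000 best intervals of each library, because folds depend on depth. A log2 rank gain of +1 means a rank that is better in KO by a factor of 2. The lists held 149153 to 260462 distinct intervals. The median fold of the 100000 best was 12.1 in WT replicate 2 and 11.0 in KO replicate 2, and 7.33 to 8.80 in the other 4 libraries. Of 18 urothelial marker genes, 13 to 17 had an interval in a library at the gene start, or at a span end where no start was listed. Trp63 had no listed start and no interval at the span ends examined, and the inside of the gene was not searched. The counts were 0 to 4 of 6 for fibroblast markers, 2 to 3 of 5 for smooth muscle and 1 of the 5 leukocyte markers reported (Csf1r, while Ptprc, Cd3e, Lyz2 and Itgam had none). For endothelial markers they were 0 to 2 of 5 in 5 libraries and 5 of 5 in KO replicate 1.

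Promoter sequences were in the RefSeq table (GRCm38.p6, the coordinates of mm10) for 3 of the 5 genes, Stag1, Smc1a and Smc3. They are printed because they lie under the promoter-end intervals whose ranks are compared below. The bases run 5′ to 3′ on the plus strand and end just before the gene start. Capitals mark matches on either strand to GGGCGG (the GC box of Sp/KLF factors) and CCAAT. For Smc1a only the 132 bases between its start and that of Ribc1, a neighbour transcribed in the other direction, are shown.
Stag1, chr9:100643198-100643447: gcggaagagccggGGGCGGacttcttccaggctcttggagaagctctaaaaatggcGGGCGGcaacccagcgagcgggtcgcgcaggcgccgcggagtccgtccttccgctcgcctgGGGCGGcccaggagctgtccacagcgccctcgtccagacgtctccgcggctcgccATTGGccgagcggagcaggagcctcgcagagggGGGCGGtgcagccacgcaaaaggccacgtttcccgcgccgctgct
Smc3, chr19:53600146-53600395: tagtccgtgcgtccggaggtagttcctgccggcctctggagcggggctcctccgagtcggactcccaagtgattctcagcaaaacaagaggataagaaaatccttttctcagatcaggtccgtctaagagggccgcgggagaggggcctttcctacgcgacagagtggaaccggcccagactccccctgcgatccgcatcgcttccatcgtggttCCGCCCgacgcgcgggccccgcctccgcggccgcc
Smc1a, chrX:152016296-152016427: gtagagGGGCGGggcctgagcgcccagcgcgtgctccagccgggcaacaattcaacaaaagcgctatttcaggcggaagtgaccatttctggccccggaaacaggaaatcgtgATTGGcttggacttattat

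All 3 promoters were rich in CpG. Over the 250 bases before the start, the GC content was 71.2% for Stag1, 64.4% for Smc3 and 56.8% for Smc1a, against a median of 52.4% over 32851 RefSeq promoter entries. The observed over expected CpG ratio was 0.98, 1.01 and 0.79, against a median of 0.37. GGGCGG matched 4 times in Stag1, 1 time in Smc3 and 1 time in Smc1a, and 32.7% of all entries held at least 1 match. CCAAT matched 1 time in Stag1 and 1 time in Smc1a (33.8% of entries). The series title names DREAM, a repressor complex that acts through E2F and CHR elements. Neither the CHR core TTTGAA (16.0% of entries) nor the E2F motif in the form GGCGGGAA (1.86%) was present in these 3 windows. The ETS motif in the form CCGGAAG (6.91%) was absent too. Other forms of the E2F and ETS motifs were not searched. No match says only that these letters are not in the window.

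Each of the 5 genes had an interval in all 6 libraries at or near its promoter end, and its summit fell at nearly the same base in all 6 libraries. From the start of Stag1 at 100643448 on chromosome 9, the summit lay at -106 to -93 bp. This start lies well inside the annotated Stag1 span, 100597709 to 100958544, so windows at the span's ends do not reach it. For Smc3 (chromosome 19, 53600396 to 53645831) the summit lay at -376 to -356 bp from the start, and for Smc1a (chromosome X, 152016428 to 152061973) at -5 to 18 bp. Stag2 (chromosome X, 42149297 to 42277186) and Rad21 (chromosome 15, 51962604 to 51993538) had no promoter entry, and both ends of their spans were examined. The Stag2 summit lay at -227 to -205 bp from the lower end, the 5′ side of this gene. At Rad21, which is transcribed from the minus strand, no interval touched the 500 bp around either end. The leading interval lay 1474 bp inside the upper end, at 51990987 to 51992064, with its summit at -1641 to -1630 bp from that end. The span of Gm52217 overlaps the same interval, and a start or span end of that gene lies within 500 bp of it.

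**Figure D1:**
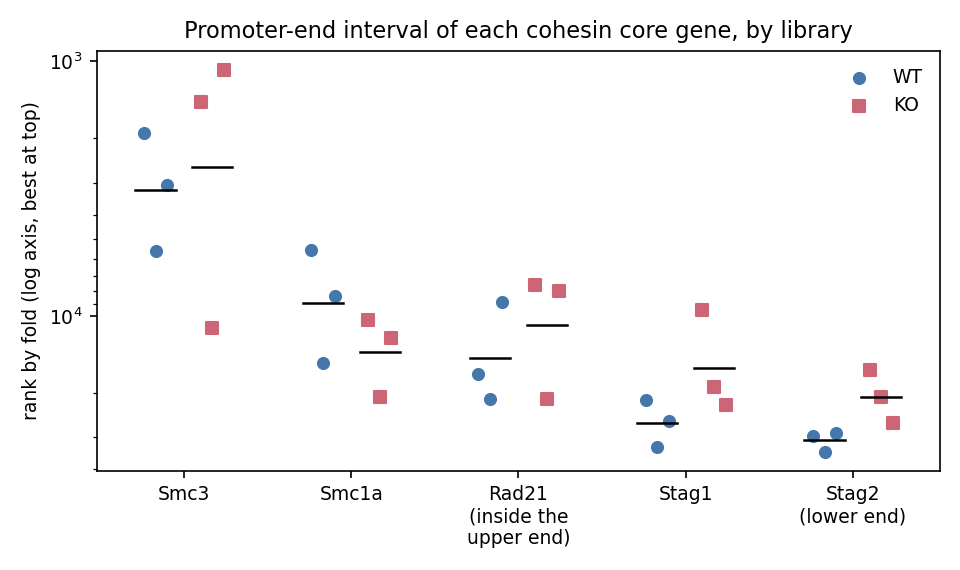
Rank by fold of the promoter-end interval of each gene in each library (log axis, best rank at the top). Rad21 had no listed start and no interval within 500 bp of its span ends. Its leading interval, 1474 bp inside the upper end, is drawn. Points are libraries, circles WT and squares KO (n = 3 each), and bars are geometric means. Smc3 ranks best in all 6 libraries among the genes with a promoter-end interval, and the Stag2 KO points all lie above the WT points.

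Smc3, the ATPase partner of SMC1A, had the best-ranked promoter. Its interval held ranks 1911, 5579 and 3063 in WT replicates 1 to 3 and 1445, 11188 and 1081 in the KO replicates, with folds of 23.8 to 31.8. The groups overlapped, with replicate 2 the lowest in each genotype. The gain was 0.30 ± 0.90 (SE, n = 3 per group, limma over all gene starts, adjusted p = 0.907). Its sign was not stable: it was -0.43 by -log10 p, and -0.10, -0.12 and -0.33 without WT replicate 2, KO replicate 1 and KO replicate 3.

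Smc1a was next, at ranks 5500, 15310 and 8382 in WT and 10360, 20884 and 12198 in KO. The groups overlapped, and replicate 2 was again the lowest of each genotype. The gain was -0.63 ± 0.50 (limma adjusted p = 0.566), the only negative value among the 4 tested promoter ends. It was -0.29, -1.03 and -0.34 without WT replicate 1, WT replicate 2 and KO replicate 2. The start of Ribc1, at 152016295, is 133 bp from that of Smc1a, so both genes have the same interval and the same values. Relative to all gene starts, whose median gain was 0.24, Smc1a stood at -0.88 and at the percentile 5.22.

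The interval inside the upper end of Rad21 held ranks 16884, 21198 and 8807 in WT and 7532, 21124 and 7990 in KO. KO replicates 1 and 3 ranked better than every WT library, and KO replicate 2 lay among them. As a region, its gain was 0.44 ± 0.53 (limma over all regions, adjusted p = 0.698).

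Stag1, the gene of the STAG subunit that remains in the KO, held ranks 21421, 32617 and 25785 in WT and 9459, 19081 and 22433 in KO. KO replicates 1 and 2 ranked better than all WT libraries, and KO replicate 3 lay between WT replicates 1 and 3. The gain was 0.72 ± 0.38, which did not pass (limma adjusted p = 0.405). It was 0.34 without KO replicate 1, and 0.04 ± 0.61 once the fit included each library's share of intervals at gene ends. It was 0.47 above the median of all gene starts and at the percentile 87.6. In WT replicate 1 the interval was 1454 bp wide, and in the other libraries 599 to 643 bp. Each of those other lists held a separate, lower-ranked interval just before it, inside the stretch that the WT replicate 1 interval covers.

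Stag2 itself, the deleted gene, kept its promoter-end interval in every KO library. The ranks were 29586, 34076 and 28720 in WT and 16287, 20829 and 26329 in KO, with folds of 10.8, 16.4 and 13.3 against 17.7, 21.4 and 13.4. All KO ranks were better than all WT ranks. The gain was 0.57 ± 0.31 (limma adjusted p = 0.411), or 0.32 above the median of all gene starts. It was 0.14 ± 0.48 with the share at gene ends in the fit. The deletion was not examined here, since the labels do not name the exons. In the upper 89.3 kb of the span, 69.8% of its length, none of the 6 lists had an interval. In these bulk samples, a change in the number of cells with an open site and a change in opening per cell cannot be told apart.

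Of the 4 promoter ends tested, 0 were called in either direction (limma, adjusted p below 0.05), and 0 had an unadjusted p below 0.05. Over all 13699 gene starts tested, 0.0365% were called higher and 0.0292% lower. An unadjusted limma p below 0.05 was found at 1655 of these starts with KO higher and at 194 with KO lower. Groups that did not overlap, with KO better, were found at 1 of the 4 (Stag2) and at 16.9% of all gene starts. The reverse was found at none of the 4 and at 1.34% of all. Gains were positive at 3 of 4, with a median of 0.43, and at 72.0% of all gene starts. The share of the 50000 best intervals that lay at gene ends also differed between the genotypes, at 18.2% to 19.0% in WT and 19.1% to 21.2% in KO. With that share as a covariate, the median gain was 0.04 over all gene starts and 0.09 over the 4 members. The shares did not overlap between the genotypes and came from the same lists, so this fit cannot tell the share apart from genotype. When ranks were taken among gene starts alone, the medians were 0.01 and 0.19.

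By mean rank over the 6 libraries the order was Smc3, Smc1a, Stag1 and Stag2. Smc3 ranked above Smc1a in 6 of 6 libraries, by 1.95 ± 1.00 on the log2 rank scale (SD), and Stag1 above Stag2 in 6 of 6, by 0.30 ± 0.27. Both had an adjusted p of 0.0469 (exact sign-flip permutation test, two-sided, over 3 neighbouring pairs), where 0.0312 is the smallest unadjusted p that 6 libraries allow. The pairs were taken from the same mean ranks that were tested. The test also treats the 6 libraries as independent. With same-numbered WT and KO libraries averaged, each pair had p = 0.25, the smallest that 3 values allow (exact sign-flip permutation test), so the calls rest on that independence. Smc1a ranked above Stag1 in 4 of 6 libraries, by 0.88 ± 0.87 (adjusted p = 0.125, exact sign-flip permutation test), which did not pass. In KO replicates 1 and 2 Stag1 came above Smc1a, and in KO replicate 2 Stag2 did too. Both calls were lost when Rad21 was added through windows of 2000 bp, which left adjusted p at 0.0625 for each (exact sign-flip permutation test over 4 pairs). By -log10 p, Stag1 came above Smc1a and no pair passed. Among all tested gene starts, Smc3 was at the percentile 95.4 of mean rank, Smc1a at 77.6, Stag1 at 57.7 and Stag2 at 49.0.

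The gene starts with the most similar ranks were sought by the root mean square difference in log2 rank over the 6 libraries. They were Slc7a6 (0.0763) and Arfrp1 (0.0845) for Stag2, Zfp558 (0.119) and Arih2 (0.139) for Stag1, Cand1 (0.174) and Rfx2 (0.176) for Smc1a, besides Ribc1 with its shared window, and Aph1c (0.368) and Nasp (0.396) for Smc3. The nearest neighbours of Smc3 were the most distant ones.

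The widened spans were 401 kb long for Stag1, 168 kb for Stag2, 85.5 kb for Smc1a, 85.4 kb for Smc3 and 70.9 kb for Rad21, so counts per gene are not comparable without the length. The 256 intervals of the 6 lists (1 pair with the same coordinates) merged into 71 places, of which 21 were in all 6 lists and 22 in 1 list. Promoter ends included, Stag1 held 30 places, Smc3 15, Stag2 11, Rad21 9 and Smc1a 6. Within the 100000 best intervals the 5 genes formed 33 regions: 15 at Stag1, 7 at Stag2, 5 at Smc1a, 4 at Rad21 and 2 at Smc3. Of these, 24 had an interval in at least 3 libraries and were tested, and 17 had one in all 6.

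**Figure D2:**
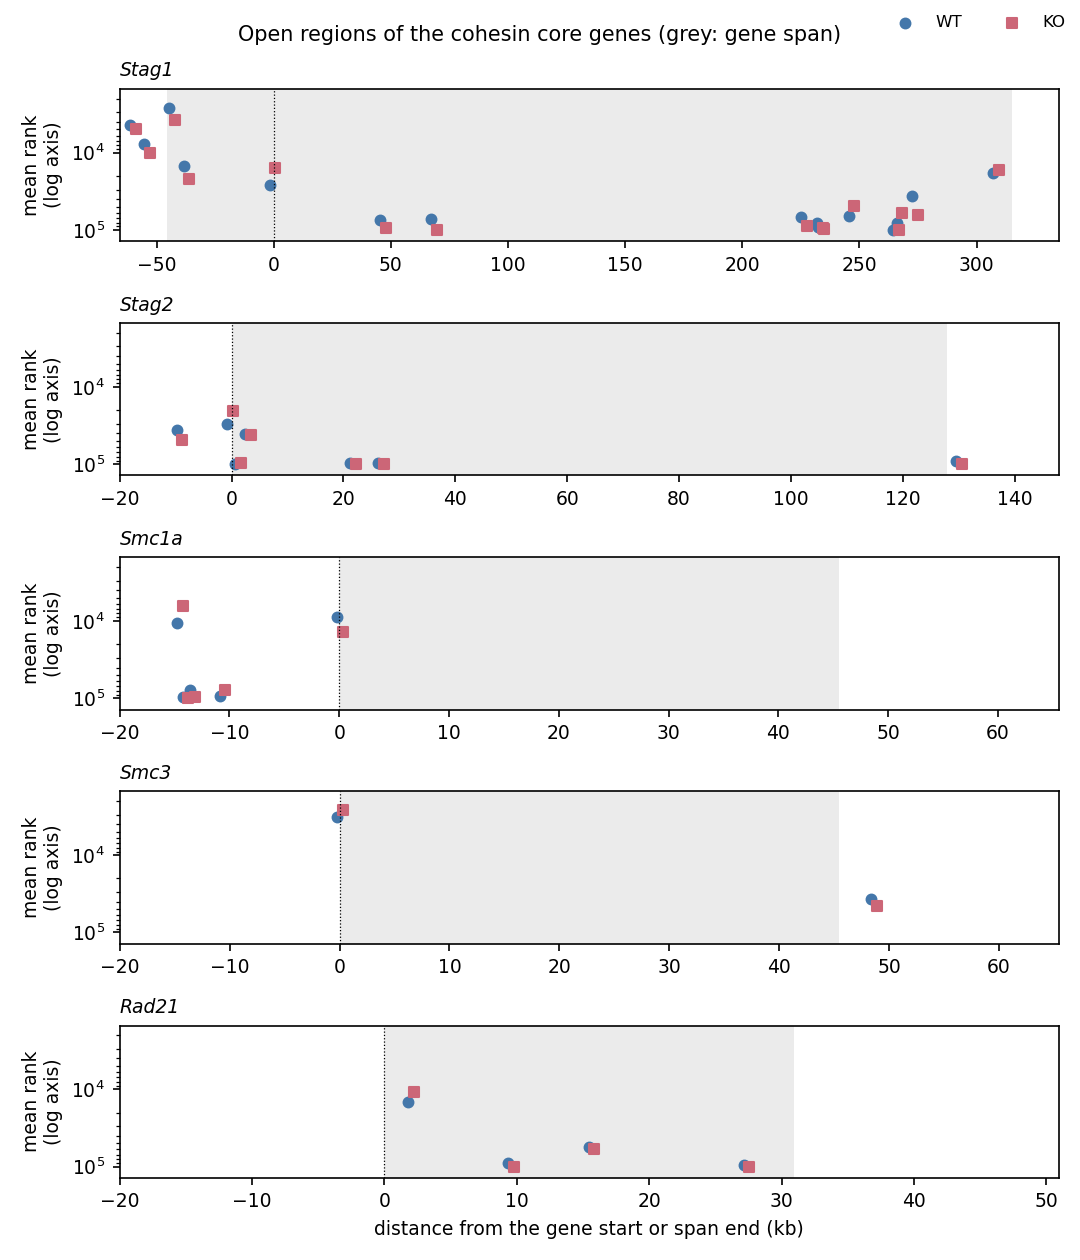
Regions of each gene by distance from the gene start (Stag1, Smc1a, Smc3) or from the lower (Stag2) or upper end of the span (Rad21, drawn from the upper end inwards), in kb. The vertical axis is the geometric mean rank per genotype (log axis, best at the top), with the rank just past the list where a library had none, and WT circles and KO squares are shifted sideways to be seen apart. Stag1 has its best-ranked regions before the start, while Smc1a and Smc3 have none in the rest of the span.

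At Stag1, 2 regions outranked the promoter end in all 6 libraries and 2 more did so in 5 of 6. The best lay inside the span at 100599494 to 100600476, 42972 bp before the start. It is close to the lower end of the annotated span at 100597709. It held ranks 5049, 1458 and 2417 in WT and 7032, 2858 and 2621 in KO, a gain of -0.52 ± 0.69 (limma adjusted p = 0.726). A pair of them lay below the span. The one at 100582803 to 100583764, also ahead in 6 of 6, held ranks 2517, 9250 and 3537 in WT and 4415, 8480 and 3155 in KO. The region at 100589082 to 100589721 held ranks 5105, 11208 and 8144 in WT and 11499, 9322 and 9595 in KO. In both the groups overlapped (gains of -0.17 ± 0.65 and -0.38 ± 0.46, limma adjusted p = 0.912 and 0.697). The fourth, inside the span at 100605923 to 100606530, held ranks 19509, 7410 and 22472 in WT and 29760, 18094 and 18673 in KO, and lost to the promoter end in KO replicate 1 (gain -0.54 ± 0.48, limma adjusted p = 0.586).

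Towards the far end of Stag1, the region at 100951544 to 100951830, 308096 bp past the start, was in all 6 lists. Its ranks ran from 6556 in WT replicate 2 to 36376 in WT replicate 1, with the KO libraries at 18661, 13197 and 19354, between these. The gain was 0.11 ± 0.58 (limma adjusted p = 0.940).

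The members' smallest p-values in each direction also fell inside Stag1. The region at 100917164 to 100917459 held ranks 55227, 31119 and 26849 in WT and 117682, 67949 and 39265 in KO. KO replicate 3 lay among the WT libraries, and the gain was -0.84 ± 0.40 (limma adjusted p = 0.353). The region at 100910435 to 100910659 held ranks 99153, 65652 and 82297 in WT and 50049, 64161 and 69759 in KO, and the groups overlapped (gain 0.42 ± 0.23, limma adjusted p = 0.398). Its interval was the only one with the same start and end in a pair of lists, KO replicates 1 and 2. Another region, at 100711747 to 100712017, was worse in every KO library, at 128907, 109943 and 97320 against 80598, 49925 and 93959 (gain -0.45 ± 0.22, limma adjusted p = 0.353). It is named after its values were seen.

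Stag2 had a second region, 2759 bp inside the lower end, at 42152056 to 42152383. It held ranks 33629, 52502 and 38127 in WT and 35003, 59953 and 35278 in KO. The groups overlapped and the gain was -0.05 ± 0.33 (limma adjusted p = 0.958). A region 9046 bp below the span, at 42139728 to 42140251, ran from rank 18387 in WT replicate 2 to 62128 in WT replicate 1, with KO at 54749, 43455 and 48415 (gain -0.41 ± 0.42, limma adjusted p = 0.643). The remaining 4 Stag2 regions were in the rank list of 1 library each and were not tested.

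Inside the spans of Smc1a and Smc3 the rank lists held no region past the promoter end. In the Smc1a span, 42.6 kb in a row, 93.6% of its length, lacked an interval in every list, and in Smc3 33.5 kb, or 73.7%. Outside the spans, Smc1a had 4 regions and Smc3 had 1. The best other region of Smc1a, at 152001663 to 152002151, lies at the start of Hsd17b10, which encodes a mitochondrial dehydrogenase. It held ranks 10718, 9098 and 12044 in WT and 4528, 4931 and 11899 in KO. KO replicates 1 and 2 ranked better than all WT libraries, and KO replicate 3 did not (gain 0.71 ± 0.51, limma adjusted p = 0.496). It outranked the Smc1a promoter end in 4 of 6 libraries, WT replicate 2 and the KO libraries.

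The other region of Smc3 lay past the span, at 53648773 to 53649286. Its ranks of 40815, 41376 and 53785 in KO were all worse than those of 37176, 38472 and 33870 in WT. The gain was -0.30 ± 0.29 (limma adjusted p = 0.613). Rad21 had a second region in all 6 rank lists, inside the span at 51977767 to 51978042. It held ranks 63031, 39228 and 68887 in WT and 69686, 57358 and 50700 in KO (gain -0.08 ± 0.29, limma adjusted p = 0.903), and the groups overlapped.

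No place was in the 3 KO lists and missing from the WT lists, and 1 place was in the 3 WT lists and missing from the KO lists. Of all 340414 merged regions of the whole lists, 0.496% showed the first pattern and 0.933% the second, and the count of 1 in 71 places is too small to be set against these shares. The place lay below Rad21, at 51952504 to 51952721, with ranks of 122595, 124086 and 122482 and a -log10 p of 6.33, 10.3 and 7.08. These ranks are outside the 100000 best, so the place was not tested. The list of KO replicate 1 starts at a -log10 p of 3, and the others start at 2.

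**Figure D3:**
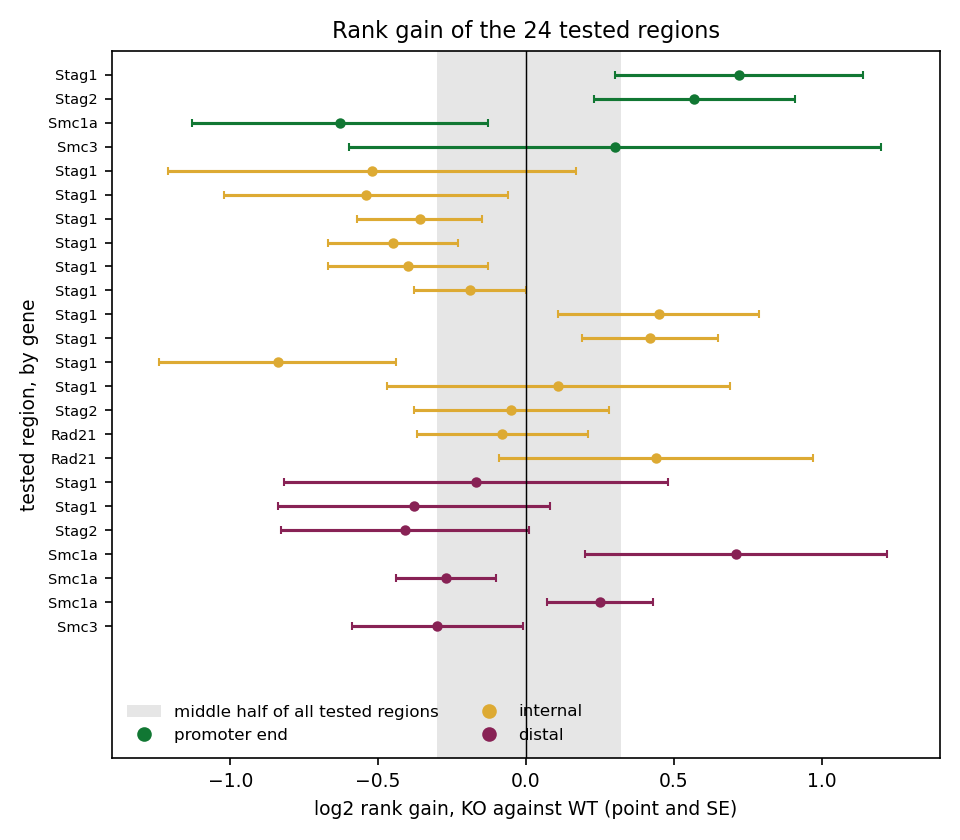
Log2 rank gain in KO against WT of the 24 tested regions, 1 row a region in order of position within each gene, with the SE of the limma fit (n = 3 per group). The grey band runs from the lower to the upper quartile of all 100565 tested regions, -0.302 to 0.323. Gains run from -0.84 to 0.72, and 15 of 24 are negative.

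Of the 24 tested regions, 0 were called higher and 0 lower in KO (limma, adjusted p below 0.05), and 0 had an unadjusted p below 0.05. Over all 100565 tested regions, 0.0119% were called higher and 0.00895% lower. An unadjusted limma p below 0.05 was found at 7006 of these regions with KO higher and at 7888 with KO lower. The smallest adjusted p of a member was 0.353. Gains were positive at 9 and negative at 15, with a median of -0.18, while 51.5% of all regions were positive, with a median of 0.02. Adding the share at gene ends to the fit turned this to 14 positive and 10 negative with a median of 0.09. That share cannot be told apart from genotype. By position, the median was 0.43 over the 4 promoter ends, -0.19 over 13 internal and -0.27 over 7 distal regions. The leading Rad21 interval, whose gene had no listed start, was counted as internal. All 3 KO ranks were better than all WT ranks at 1 region (4.17%, against 11.4% of all regions), and worse at 2 (8.33%, against 8.17%). Stag2 and Smc1a are X-linked, and the median gain over the 1985 tested regions of chromosome X was -0.02. With a block on the replicate number, again 0 were called, and the smallest adjusted p was 0.147.

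The number of intervals near the genes was then counted per library among the 100000 best. The 5 genes together had 27, 24 and 28 intervals in WT and 18, 20 and 25 in KO. KO replicate 3 lay within the WT range, and the other KO libraries below it. The means were 26.3 ± 2.08 and 21.0 ± 3.61 (SD, n = 3 each), a difference of -5.33 (exact permutation test, two-sided p = 0.2), where 0.1 is the smallest p for 3 against 3. It was -1.67 among the 50000 best and -2.00 with ranks by -log10 p (exact permutation test, p = 0.4 and 0.3). In the whole lists the counts were 42, 42 and 49 in WT and 42, 34 and 47 in KO (exact permutation test, p = 0.6).

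**Figure D4:**
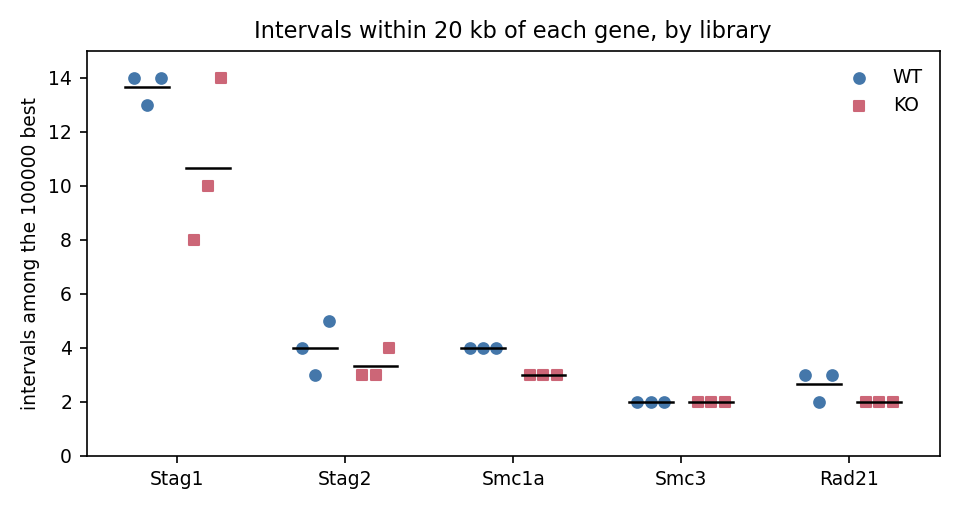
Intervals among the 100000 best of each library that overlap each gene span widened by 20 kb. Points are libraries (circles WT, squares KO, n = 3 each) and bars are means. Stag1 spans 13 to 14 in WT and 8 to 14 in KO, Smc1a is at 4 in WT and 3 in KO, and Smc3 is at 2 throughout.

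Most of that difference lay at Stag1, with 14, 13 and 14 intervals in WT and 8, 10 and 14 in KO (exact permutation test, p = 0.4). Smc1a had 4 in each WT and 3 in each KO library (exact permutation test, p = 0.1, the smallest possible, 1 of 5 genes compared). In the whole lists Smc1a overlapped, at 4, 5 and 5 against 3, 4 and 5. The weaker regions of its window lay outside the Smc1a span, in spans of neighbouring genes, and differed in direction. The region at 152002925 to 152003223 overlapped the span of Hsd17b10. It held rank 77180, 97478 and 64654 in WT and 86027 in KO replicate 3, and had no interval in the other KO lists. Another region at Hsd17b10, at 152002258 to 152002606, was only in the rank list of WT replicate 1, at rank 89466. The region at 152005655 to 152005959 had no interval in WT replicate 1, and held rank 96332 and 84181 in the other WT libraries and 70768, 68203 and 143318 in KO (gain 0.25 ± 0.18, limma adjusted p = 0.499). Smc3 had 2 intervals in every library. Per 100 kb, the genes held 3.04 (Stag1), 2.18 (Stag2), 4.09 (Smc1a), 2.34 (Smc3) and 3.29 (Rad21) intervals, all below the median of 6.83 over protein-coding genes. The X-linked Stag2 and Smc1a lay above the median of 1.89 over X-linked genes.

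Other genes of the cohesin cycle were compared at their starts. Of 13 (loaders, releasers, acetyltransferases, cleavage genes and Ctcf), 12 were tested, 0 were called in either direction (limma), and the median gain was -0.17. Nipbl, the loader gene, had no interval at the span ends examined. The lowest gain was that of Espl1, the gene of separase, which cleaves RAD21. Its start held ranks 98, 100 and 94 in WT and 1420, 247 and 156 in KO, without overlap (gain -1.96 ± 1.31, limma adjusted p = 0.498). Hdac8, whose product deacetylates SMC3, followed at -0.60 ± 0.25, also without overlap (limma adjusted p = 0.344). The highest gains were 0.60 ± 0.26 for Pds5a, of a cohesin regulator, and 0.41 ± 0.28 for Ctcf. KO ranks were all worse at 2 of the 12 (Espl1 and Hdac8), against 1.34% of all gene starts, and all better at 1 (Ctcf), against 16.9%.

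Of the germline paralogues, 3 of 4 were tested and 0 called. Stag3 was open in all 6 libraries, at rank 16123, 26543 and 20817 in WT and 18293, 27693 and 20651 in KO, better than Stag2 in 4 of them. Smc1b was in all 6 lists too, with a gain of 0.51 ± 0.32. Rec8 held rank 32416, 25354 and 91098 in WT, rank 98912 in KO replicate 2 and none in the other KO rank lists (gain -1.24 ± 0.35, limma adjusted p = 0.312), and Rad21l had no interval in any rank list.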

How the data were processed

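The 6 peak lists in narrowPeak format were made by the authors, 1 per library. The submitters' processing notes name mm10 and DiffBind. An aligner or a peak caller is not given in the sources used here. Names of the deposited files read as duplicates and mitochondrial reads removed, with a p threshold and a limit on the number of peaks. The deposited columns hold the fold over local background, which is a ratio, the −log10 p-value, the −log10 q-value and a display score that was not used. The deposited summit position was used as given.

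Distinct intervals of a list, each with its highest fold, were ranked by fold, with ties broken by −log10 p. The 100000 best per library were merged where they overlapped by at least 1 bp, and a library without an interval received the next rank after the last. Regions with an interval in at least 3 libraries were compared on −log2 rank with limma 3.58.1 in R 4.3.3 (moderated variances with a trend, Benjamini-Hochberg adjustment over all regions, threshold 0.05). Gene starts (500 bp either side) were fitted in the same way over all protein-coding genes. Starts came from RefSeq's GRCm38.p6 promoter table for 17491 genes. For the other 4405 the better-ranked span end was used. Where a gene had several starts, the best-ranked over all libraries was used, whatever the genotype. Depth is known only through the lists, and weak intervals depend on it. Single values were compared with exact permutation tests. Python 3.11.15 with NumPy 2.4.6 and pandas 2.3.3 was used, with matplotlib 3.10.9 for figures. The rank test and the merging were tested on simulated lists.

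The replicate numbers of the titles pair the libraries by the correlation of same-numbered deviations from the genotype means over all tested regions, at 0.11, 0.56 and 0.40, and not by any statement of a shared animal or day. WT replicate 1 correlated better with KO replicate 3 (0.32).

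The genes, the lists and the alternatives were chosen with earlier results of these data known, and 1 gene of the leukocyte marker list is not reported here. Named were the promoter end and the best other region of each gene, the smallest p-values among regions in both directions, the 2 most similar gene starts per gene, and the 2 highest and 2 lowest gains among other cohesin genes. Further regions of Stag1, Stag2, Smc1a and Rad21 in the text were chosen after their values were seen. Motifs were searched in the 250 bases before each start. Alternatives varied the list length, the ranking, the windows, the filters, a covariate, the block and the libraries included.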

Additional observations from a re-analysis of the deposited data

How the results depend on the processing

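In none of the alternatives run was a region or a promoter end of the 5 genes called by limma. The smallest adjusted p of a region was 0.0865, without KO replicate 3, where 835 of all regions were called higher and 1578 lower, against 12 and 9 with all libraries. Those numbers were 31 and 21 by -log10 p, 21 and 19 with a rank list of 140000, 16 and 16 with a replicate block, 2 and 2 with a rank list of 50000, and 0 and 0 with the covariate (the gene-end share). For gene starts they were 5 and 4 with all libraries, 338 and 114 without WT replicate 2, 888 and 74 without KO replicate 3, and 0 and 0 without KO replicate 1. The replicate block changed no call of a member, with 0 regions and 0 promoter ends called. The limit on −log10 q removed nothing from the 100000 best. The region at 53648773 near Smc3 and some others were missing from the rank list of 25000 and gave no value there.

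The promoter ends of Stag1 (gains of 0.04 to 1.88), Stag2 (0.14 to 1.00) and Smc1a (-1.03 to -0.29) kept their direction in every alternative run. Smc3 turned to -0.43 by -log10 p, to -1054 ranks with linear ranks, and to -0.33, -0.12 and -0.10 without KO replicate 3, KO replicate 1 and WT replicate 2, both at its start and as a region (-0.33 to 1.35 without each library), and reached 1.78 with the covariate. The Stag2 region at 42152056 turned to 0.02 with a rank list of 50000, 0.18 by -log10 p, 0.21 with the covariate, and 0.09, 0.00 and 0.21 without WT replicate 1, WT replicate 3 and KO replicate 2 (-0.23 to 0.21 without each library). With the covariate, the Stag1 regions at 100599494 and 100917164 turned to 0.46 and 0.31, and the Smc1a region at 152001663 to -0.40. The covariate cannot be told apart from genotype, and the cause was not tested. The difference in the number of intervals was -7.33 to -3.83 without each library, -1.67 among the 50000 best and -2.00 by -log10 p, against -5.33. With so few libraries no exact permutation p can fall below 0.1. Without KO replicate 3 it was at that limit (exact permutation test, p = 0.1). The order of promoter ends had 2 called pairs with all libraries, and 0 by -log10 p, with windows of 2000 bp, with same-numbered libraries averaged (both chosen after seeing the data) and without each library (0 to 0). With 5 libraries or 3 averages the sign-flip test cannot pass.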
